A study of Rattus norvegicus with 5 samples.

Results

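Inflammatory chemokine, cytokine and NF-kB inhibitor transcripts were followed through single-cell RNA libraries of rat retina in control animals and in early diabetes. The 10 genes were Ccl2, Ccl3, Ccl4, Cxcl1, Cxcl2, Tnf, Il1a, Il1b, Nfkbia and Tnfaip3, chosen by name from the 25399 genes of the count tables, and all 10 were found there under a symbol held by a single gene. Counts of unique molecular identifiers (UMIs, which mark single captured transcripts) were summed per library and cell class and are given as CPM (counts per 1000000 UMIs of that class). The series holds 5 retinas of SD rats, of which 4 had a count matrix used here. These were control replicate 2 (0 weeks, an injection of citrate phosphate buffer) and 1 library each from rats kept for 2, 4 and 8 weeks with diabetes. Control replicate 1 was not analysed here. Diabetes was induced with a single injection of streptozotocin (STZ, a toxin of pancreatic beta cells) at 45 mg/kg. Rats above 200 mg/dL blood glucose entered the study and were then given food high in fat and sugar. Strain and the trypsin digestion (0.25%, 37 °C, about 40 min) were shared by all groups, and the labels used here give no age. With 1 retina library per time, the effects of diabetes, its duration, diet, age, the animal and the preparation cannot be told apart.

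The encoded proteins form a known circuit. In resting cells IkB alpha, the product of Nfkbia, holds NF-kB in the cytoplasm. Signals from Toll-like, TNF and interleukin-1 receptors lead to its breakdown, and NF-kB then enters the nucleus and drives genes for chemokines and cytokines as well as for its own inhibitors, IkB alpha and the ubiquitin-editing protein A20 (Tnfaip3). Microglia are the resident macrophages of the retina and a major source of these chemokines, many of whose transcripts also appear quickly when cells are handled.

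The promoters of the members that the annotation table covers were read to show where the NF-kB motif lies in them. RefSeq promoters (GRCr8 build, 250 bases before to 50 bases after each start) were present for 7 of the 10 genes, namely Cxcl1, Cxcl2, Tnf, Il1a, Il1b, Nfkbia and Tnfaip3. GRCr8 is a later build than the one the counts were made on, and its coordinates are used for these sequences alone. The kappaB-type motif GGGNNTTTC, searched on both strands, was present in 4 of the 7 and in 4.53% of all 33469 promoters of the table. The 110 bases before the start are printed 5′ to 3′ on the gene's strand, with matches in capitals, for Cxcl1 (chr14:17479322-17479431, minus strand), Cxcl2 (chr14:17467256-17467365, minus strand), Nfkbia (chr6:78597073-78597182, minus strand) and Tnfaip3 (chr1:15543980-15544089, minus strand), since these carry the match.
Cxcl1: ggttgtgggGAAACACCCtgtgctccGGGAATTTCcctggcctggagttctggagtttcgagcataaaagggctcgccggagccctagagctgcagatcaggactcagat
Cxcl2: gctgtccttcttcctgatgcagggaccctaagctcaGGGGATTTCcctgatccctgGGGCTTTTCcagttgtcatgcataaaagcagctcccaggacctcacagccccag
Nfkbia: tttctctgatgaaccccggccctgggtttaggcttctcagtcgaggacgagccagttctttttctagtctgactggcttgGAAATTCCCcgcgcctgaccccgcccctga
Tnfaip3: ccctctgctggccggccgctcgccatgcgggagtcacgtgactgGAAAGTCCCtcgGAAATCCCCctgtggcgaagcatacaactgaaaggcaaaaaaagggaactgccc

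Cxcl1, Cxcl2 and Tnfaip3 each held a pair of matches within 101 bases of the start, and Nfkbia held 1 whole match in the printed stretch, beginning 30 bases before the start. Nfkbia held 2 more matches and Tnfaip3 1 more elsewhere in the 300-base window. Tnf, Il1a and Il1b had no GGGNNTTTC in these windows, which says only that these letters are not there. The AP-1 motif TGANTCA, held by 7.33% of all promoters on either strand, was found in Il1a and Tnfaip3. The letters TATAAA, which 14.2% of all promoters hold on either strand, were found in Tnf, Il1a, Il1b and Nfkbia, in the latter after the start and on the other strand. The match began 46 bases before the annotated start of Tnf (chr20:3626575-3626684, plus strand) and 60 bases before that of Il1b (chr3:137036582-137036691, minus strand), here in capitals in the same 110 bases, and 32 bases before that of Il1a.
Tnf: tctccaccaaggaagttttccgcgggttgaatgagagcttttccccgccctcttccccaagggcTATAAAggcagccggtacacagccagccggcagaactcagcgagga
Il1b: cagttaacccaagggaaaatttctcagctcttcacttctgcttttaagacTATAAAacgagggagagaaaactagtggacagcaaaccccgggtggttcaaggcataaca

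After filters on UMIs, genes, mitochondrial share and doublets, 6823 control cells and 10984, 7689 and 4283 cells at 2, 4 and 8 weeks remained, with median depths of 903 to 1414 UMIs. Cells were clustered without the 10 members and without 95 companion genes, so that neither could define a class, and clusters were named from marker lists. Microglia numbered 225, 203, 77 and 162 cells with 1180320, 729536, 320830 and 685629 UMIs, and at least 1 UMI of each of 12 microglial markers was present in every library. Macrophage markers summed to only 32.2 to 65.6 CPM in them, against 15037 to 22073 CPM for microglial markers. Rod markers, which microglia should lack, summed to 1853 CPM in control microglia, 9834 at 2 weeks, 2300 at 4 weeks and 2487 at 8 weeks. Libraries shared between 13 and 70 cell barcodes, out of 7173 to 16128 per sample. With 1 library analysed per group there is no test between groups, every interval is a 95% interval of counting error, and a member is called lower or higher only past 2-fold.

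Microglia held most chemokine and cytokine transcripts of the retina, apart from those of Cxcl1 and, at 2 and 8 weeks, Ccl2. Of the UMIs of the 8 chemokine and cytokine genes in kept cells, 96.5% lay in microglia in control, 93.1% at 2 weeks, 85.8% at 4 weeks and 96.5% at 8 weeks, although microglia made up 1.00 to 3.78% of the cells. Ccl3, Ccl4 and Cxcl2 carry that pooled share. Microglia were deeper than most cells, so their share of cells understates their share of UMIs. They held 1180320, 729536, 320830 and 685629 of the 14087050, 21291586, 11950909 and 11182385 kept UMIs at 0, 2, 4 and 8 weeks. Microglia held 82.6% of Ccl2 UMIs in control, 44.8% at 2 weeks, all 35 at 4 weeks and 39.3% at 8 weeks, and pericytes or smooth muscle cells 41.7% at 2 weeks and 47.1% at 8 weeks. The 10 members together took 1.65% of all microglial UMIs in control, 1.27% at 2 weeks, 0.356% at 4 weeks and 1.14% at 8 weeks. For 6 of the 10 genes the level was highest in control, lowest at 4 weeks and between these at 2 and 8 weeks; Ccl2, Cxcl2, Il1a and Tnfaip3 departed from this order.

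The CC chemokines draw monocytes and lymphocytes. Ccl4, also called MIP-1 beta, had levels of 5559, 3935, 464 and 4034 CPM in microglia at 0, 2, 4 and 8 weeks, the order used for all values below. Ccl3, also called MIP-1 alpha, stood at 4470, 2503, 963 and 2787 CPM. Both had counting intervals at 4 weeks that lay far below those of the other 3 libraries. A single microglial cell held 112 of the 149 Ccl4 UMIs at 4 weeks; the log2 ratio to control was -3.58 (-3.83 to -3.35) with it and -5.47 with the top cell of each library left out. For Ccl3 at 4 weeks the ratio was -2.21 (-2.39 to -2.05), with 122 of 309 UMIs in 1 cell. Ccl2, the chief monocyte chemokine, followed another order, with 218 CPM in control and 100.1, 109 and 80.2 CPM later. Its values at 2, 4 and 8 weeks overlapped within their intervals and all lay below control. At 4 weeks 18 of its 35 UMIs came from 1 cell, and the log2 ratio of -0.98 became -1.67 without the top cells.

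The CXC chemokines attract neutrophils. Cxcl2 had a level at 2 weeks above that of control, though within 2-fold. It stood at 1870 CPM in control, 2503 at 2 weeks, 224 at 4 weeks and 955 at 8 weeks. Its log2 ratio was 0.42 (0.33 to 0.51) at 2 weeks, then -3.05 (-3.42 to -2.72) and -0.97 (-1.10 to -0.84). Cxcl1 stood at 108, 53.5, 15.6 and 51.1 CPM, from 5, 5, 2 and 3 microglial cells respectively. Such a level is set by a handful of cells: 33 of the 35 UMIs at 8 weeks came from 1 cell, and the log2 ratio there was -1.07 with it and -3.91 without the top cells.

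Among the cytokines, Tnf, which activates NF-kB through its receptors, reached 215 CPM in control microglia, then 97.3, 49.9 and 97.7 CPM. Its log2 ratios were -1.14 (-1.55 to -0.76), -2.07 (-2.94 to -1.38) and -1.13 (-1.55 to -0.75). Tnf and Cxcl1 were the members past 2-fold lower at all 3 times. Cxcl1 passed only just at 2 weeks, at -1.008 (-1.577 to -0.493). Over the alternatives described below, that Cxcl1 ratio ran from -1.186 to -0.646. Il1b, which codes for interleukin-1 beta, stood at 1374, 1173, 798 and 863 CPM and was within 2-fold of control at each time. Its log2 ratio at 2 weeks was -0.23 (-0.35 to -0.11) from summed counts and 0.14 with cells thinned to 1000 UMIs. At 4 weeks 84 of its 256 UMIs lay in 1 cell. Il1a, which codes for the related interleukin-1 alpha, was scarce in every library, with 14, 8, 4 and 9 UMIs or 11.9, 11.0, 12.5 and 13.1 CPM, and its intervals overlapped throughout. It was below the level needed for a ratio.

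The inhibitors showed the low 4-week value as well. Nfkbia stood at 2604, 2293, 916 and 2514 CPM in microglia, so that control, 2 and 8 weeks lay close together and 4 weeks apart. The log2 ratio was -0.18 (-0.27 to -0.10) at 2 weeks, -1.50 (-1.68 to -1.33) at 4 weeks and -0.05 (-0.14 to 0.04) at 8 weeks. Tnfaip3 stood at 33.0, 39.8, 6.23 and 26.3 CPM, from 39, 29, 2 and 18 UMIs, and at 4 weeks its interval of 0.755 to 22.5 CPM overlapped that of 8 weeks. The 4-week log2 ratio of -2.10 (-5.50 to -0.46) rested on 2 UMIs and was 0.94 after thinning to 1000 UMIs.

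**Figure D1:**
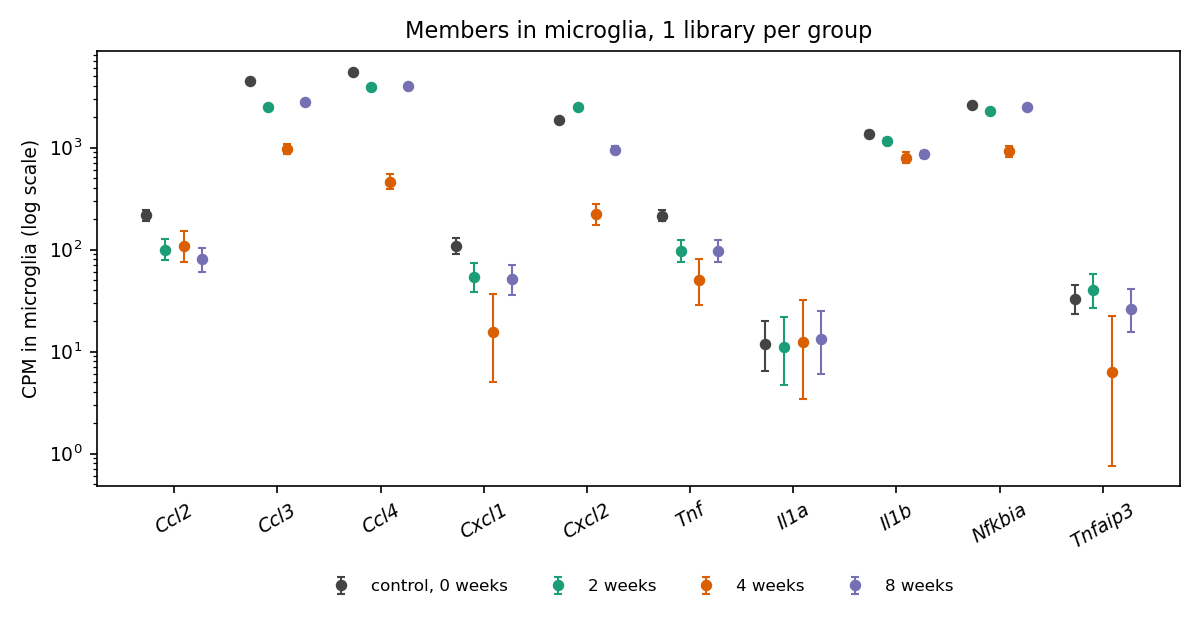
CPM of the 10 members in microglia (log scale) in the 4 libraries; points are the level of 1 library each and bars are exact Poisson 95% intervals of the counts. For 8 of the 10 genes the 4-week point is the lowest, while Il1a lies at 11.0 to 13.1 CPM throughout and Ccl2 at 80.2 to 109 CPM in all 3 diabetic libraries.

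Past 2-fold, 3 members were lower at 2 weeks (Ccl2, Cxcl1 and Tnf), 7 at 4 weeks (all but Ccl2, Il1a and Il1b) and 3 at 8 weeks (Ccl2, Cxcl1 and Tnf). None was higher, where 5.85, 3.88 and 1.65% of genes used were. Of the genes used in microglia, 2.28% of 4649 were that much lower at 2 weeks, 7.58% of 4457 at 4 weeks and 2.71% of 4612 at 8 weeks. The median log2 ratio was -0.36, -2.09 and -0.68 over all 10 members and -0.50, -2.10 and -0.68 over the 9 with enough counts, beside 0.14, 0.09 and -0.01 over all genes used. The 3 ratios share 1 control library, so a control that stood apart would lower all 3. Set against the library before it, the 4-week library had 6 members past 2-fold lower than at 2 weeks, where 15.4% of all genes used were. In the 8-week library 5 of the 8 members with enough counts (Ccl3, Ccl4, Cxcl1, Cxcl2 and Nfkbia) were past 2-fold higher than at 4 weeks, where 5.50% of all genes used were. With free RNA subtracted the count at 2 weeks was 0 in place of 3, and with cells thinned to 1000 UMIs it was 1. As a mean over cells, each cell weighted equally, the count at 8 weeks was 5 in place of 3. The share of all genes used is not given for these other settings, so their counts stand without a background.

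**Figure D2:**
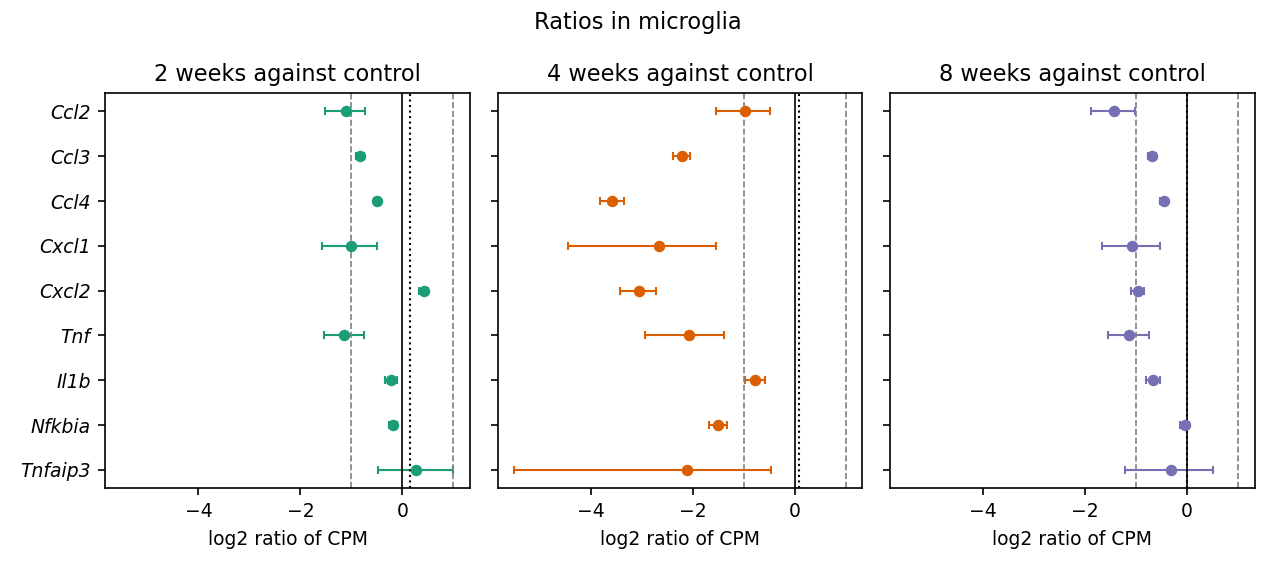
Log2 ratios of CPM to control in microglia for the 9 members with enough counts, at 2, 4 and 8 weeks, with exact conditional 95% intervals; dashed lines mark 2-fold and the dotted line the median of all genes used. The 4-week points run from -0.78 (Il1b) to -3.58 (Ccl4), and Cxcl2 at 0.42 and Tnfaip3 at 0.27 lie right of 0 at 2 weeks.

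The share of microglia with a UMI took another order than the summed levels for some members. At 2 weeks it was above control for 6 of the 10: Ccl3 was found in 48.3% of microglia (41.2 to 55.4) against 34.7% (28.5 to 41.3) in control, Il1b in 47.8% against 29.3% and Cxcl2 in 40.9% against 22.7%, and Ccl4, Nfkbia and Cxcl1 were above control too, Cxcl1 from 5 cells in each library. It was below control for Tnf (23.2% against 25.8%), Ccl2 (11.3% against 13.3%), Il1a (1.97% against 4.44%) and Tnfaip3 (11.8% against 12.0%), with overlapping intervals. With every cell thinned to 1000 UMIs, which left out 37, 44, 18 and 45 shallower cells in the 4 libraries, 2 weeks was highest for 7 members and not for Ccl2, Tnf and Il1a. Tnf was then in 11.2% of control microglia and 7.55% at 2 weeks, and Ccl2 in 6.38% and 5.66%. Ccl3 was then in 34.6% of control microglia and 49.7% at 2 weeks, 13.6% at 4 weeks and 31.6% at 8 weeks. Nfkbia was in 49.5, 69.8, 27.1 and 47.9%, and Cxcl2 in 20.7, 41.5, 6.78 and 14.5%. In rods, which should lack the chemokines, 1.30% of control cells and 0.0836% at 2 weeks held a Ccl3 UMI after thinning to 500 UMIs. The thinned microglial shares above are at 1000 UMIs per cell, so they are not at equal depth with the rod shares. Before thinning, median depths were 863 UMIs in rods of both libraries, against 5611 and 3568 in microglia.

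Few cells carried most of the transcripts in control and at 4 and 8 weeks, and less so at 2 weeks. The top 10% of microglia by member UMIs held 56.3% of them in control, 44.5% at 2 weeks, 90.9% at 4 weeks and 64.2% at 8 weeks. The median microglial cell held 2 member UMIs in control, 22 at 2 weeks, 0 at 4 weeks and 1 at 8 weeks. At 4 weeks 1 cell with 283 of the 1142 member UMIs held 24.8% of them. At least 5 of the 10 members were found together in 24.4% of control microglia, 36.0% at 2 weeks, 10.4% at 4 weeks and 18.5% at 8 weeks.

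Microglia fell into a deeper and a shallower cluster, and the members lay almost wholly in the deeper one. The deeper cluster held 153, 117, 43 and 83 cells at median depths of 5138 to 7010 UMIs, and the shallower one 72, 86, 34 and 79 cells at 928 to 1007 UMIs. Member transcripts summed to 17730, 14465, 3935 and 13074 CPM in the deeper cluster. In the shallower cluster they summed to 118 CPM in control, from 10 UMIs, and to 1370, 867 and 679 CPM at 2, 4 and 8 weeks. There the 3 diabetic libraries lay above control, which was highest in the deeper cluster. The 4-week value rested on 34 UMIs, with 10 of 13 Ccl3 and 9 of 13 Ccl4 UMIs in single cells. Rod markers in the shallower cluster stood at 5686, 26647, 3747 and 3865 CPM, and their part in these values was not tested. Thinned to 500 UMIs per cell, Ccl3 was found in 40.5% of deeper control cells and 1.39% of shallower ones, a gap that remained at equal depth.

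Within the deeper cluster, the control library spanned the widest range of members per cell. The median cell drew 0.406% of its UMIs from the members, the upper quartile lay at 2.40% and the highest cell at 14.4%, while 15.7% of cells had none. At 2 weeks no cell of 117 lacked a member UMI, which allows a share of up to 3.10% by the exact interval. Free RNA, estimated from rod markers, was 20.1% of microglial UMIs at 2 weeks and 7.06% in control, with 92.6 and 37.3 CPM of Nfkbia in it, so a UMI in a cell need not be its own. The median was 1.07%, above control, and the highest cell 5.44%, below it. At 4 weeks the median was 0.0255%, and 7 of 43 cells had 5 or more members. At 8 weeks the median of 0.378% and the 15.7% of cells without a member lay close to control, with an upper quartile of 1.88%.

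**Figure D3:**
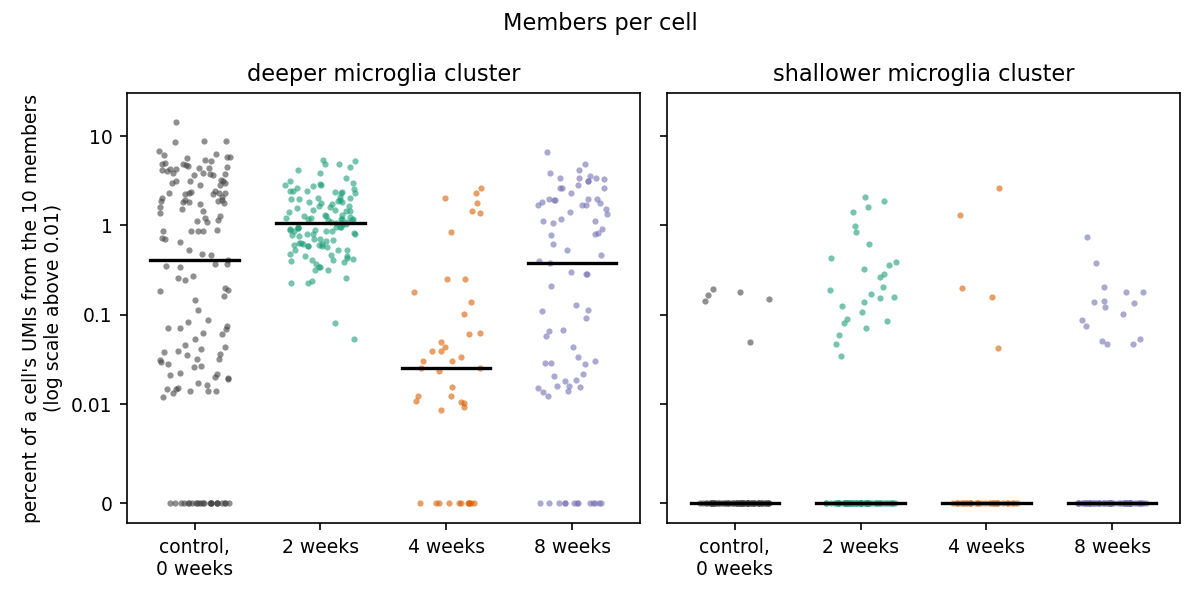
Percent of each microglial cell's UMIs that came from the 10 members (log scale above 0.01, linear below), by library and cluster; each point is 1 cell and the black line the median of the library. In the deeper cluster the 2-week cells sit in 1 band around 1.07% while control and 8-week cells spread from 0 to 14.4% and 6.57%, and the median of the shallower cluster is 0 in all 4 libraries.

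Several pairs of members occurred in the same cells, and others did not. In thinned control microglia Ccl3 and Ccl4 had a Pearson correlation of 0.87 over 188 cells, with 51 cells holding both, and the values were 0.71 over 159 cells at 2 weeks and 0.76 over 117 cells at 8 weeks. Ccl3 with Nfkbia gave 0.70, 0.37, 0.57 and 0.64 in the 4 libraries. Ccl3 with Tnf gave 0.29 in control and -0.04 at 2 weeks, where 5 cells held both. At 2 weeks Ccl2 gave -0.03 with Ccl4, -0.03 with Cxcl2 and 0.03 with Nfkbia, and Tnf gave -0.04 with Ccl4 and 0.06 with Il1b, from 9 cells with Ccl2 and 12 with Tnf. These cells share a library each and differ in RNA content, so the correlations describe the data and carry no test.

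Across 2779 genes detected in at least 10% of microglia in every library, those most like the summed members were early response genes. The 8 highest that are no members were Jun (mean correlation over the 4 libraries 0.88), Junb (0.88), Ppp1r15a (0.85), Btg2 (0.85), Fos (0.84), Ier3 (0.83), Egr1 (0.83) and Dusp1 (0.82). Jun, Junb and Fos are subunits of the AP-1 transcription factor, Egr1 is a zinc finger factor, Btg2 restrains proliferation, Ppp1r15a directs a phosphatase to the initiation factor eIF2, and Dusp1 inactivates MAP kinases. Depth and cluster add to these values. In the deeper cluster alone the same genes gave 0.71 to 0.79 on average, and at 2 weeks only 0.20 (Dusp1) to 0.43 (Btg2), against 0.82 or more in the other 3 libraries.

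Early response genes differed between libraries as well. Of 17 immediate early and heat shock genes used, 12 were past 2-fold lower at 4 weeks, 5 at 2 weeks and none at 8 weeks, while Hspa1b and Hspb1 were past 2-fold higher at 8 weeks. Of all genes used 7.58, 2.28 and 2.71% were past 2-fold lower at 4, 2 and 8 weeks and 1.65% higher at 8 weeks. The list had medians of -1.61, -0.04 and -0.12. Hspa1b, which codes for an inducible HSP70 chaperone, stood at 375, 561, 21.8 and 859 CPM in microglia. Fosb, another AP-1 subunit, stood at 408, 439, 106 and 289 CPM and Ier5 at 1411, 1443, 343 and 1022 CPM. The small heat shock gene Hspb1 departed from the others, at 99.97, 28.8, 128 and 385 CPM. Their part in the member levels was not tested.

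The genes of the NF-kB subunits were within 2-fold of control at each time, for the 3 of 5 that were used. Nfkb1, the precursor of p50, stood at 69.5, 132, 103 and 75.8 CPM, Rela, the p65 subunit, at 54.2, 90.5, 56.1 and 52.5 CPM, and Rel at 87.3, 158, 43.6 and 51.1 CPM. All 3 were highest at 2 weeks, with log2 ratios of 0.92, 0.74 and 0.85. The upstream kinases and adaptors also stayed mostly within 2-fold. Of 7 used at 4 weeks, Map3k8, a MAP kinase kinase kinase, was past 2-fold lower (339, 306, 162 and 354 CPM) and Ripk1, a kinase of the TNF receptor complex, past 2-fold higher (16.9, 26.0, 37.4 and 10.2 CPM). At 4 weeks 7.58% of all genes used were past 2-fold lower and 3.88% higher. The Ripk1 call rested on 20 UMIs in control and 12 at 4 weeks. Its log2 ratio was 1.166, and the interval of -0.023 to 2.245 held 0. The mean level of Ripk1, 22.65 CPM, was close to the 20 CPM needed. Chuk and Ikbkb, the catalytic kinases that mark IkB for breakdown, stood at 25.4, 38.4, 12.5 and 29.2 CPM and at 23.7, 19.2, 37.4 and 27.7 CPM.

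Several other feedback inhibitors were lowest at 4 weeks like Nfkbia. Nfkbiz, a nuclear IkB protein, stood at 494, 461, 143 and 366 CPM and Nfkbid, another nuclear IkB, at 61.9, 155, 15.6 and 94.8 CPM, whereas Nfkbib stood at 39.0, 42.5, 49.9 and 30.6 CPM. Of 5 negative regulators used, 3 were past 2-fold lower at 4 weeks, none at 2 weeks and 1 at 8 weeks. The shares over all genes used were 7.58, 2.28 and 2.71%. Zc3h12a, a nuclease that destroys cytokine mRNA, stood at 157, 256, 21.8 and 121 CPM. Zfp36, which targets Tnf mRNA for decay, stood at 1289, 1384, 387 and 1073 CPM, and Dusp1 at 2429, 1856, 1025 and 1746 CPM. The A20-binding protein gene Tnip1 was the one past 2-fold lower at 8 weeks, at 28.8, 26.0, 34.3 and 10.2 CPM.

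Among the receptor genes, Tlr2, which senses bacterial lipoproteins, stood at 156, 91.8, 122 and 117 CPM. The TNF receptor genes parted at 2 weeks: Tnfrsf1a was at 65.2 CPM in control and 26.0 at 2 weeks (37.4 and 39.4 later), and Tnfrsf1b at 23.7 and 54.8 (12.5 and 19.0 later). Of 8 homeostatic microglial genes used, P2ry12, a purinergic receptor, was the one past 2-fold at any time, at 253, 193, 118 and 296 CPM. It was past 2-fold lower at 4 weeks, where 7.58% of all genes used were. Sall1, a microglial transcription factor, stood at 109, 177, 137 and 123 CPM, Gpr34 at 161, 163, 81.0 and 188 CPM, and Selplg at 32.2, 23.3, 15.6 and 36.5 CPM.

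Other inflammatory genes divided. At 4 weeks 7 of 11 used were past 2-fold lower and 1 was higher, with a median of -1.34. At 2 weeks none of 12 was lower and 1, Ccl5, was higher, with a median of -0.01. At 8 weeks 1 of 11 was lower and 2 were higher, with a median of -0.14. Over all genes used, 7.58, 2.28 and 2.71% were past 2-fold lower at 4, 2 and 8 weeks, and 3.88, 5.85 and 1.65% higher. The gene higher at 4 weeks was the interferon-induced chemokine Cxcl10, named after its values were seen, at 136, 110, 315 and 302 CPM. Gadd45b, a stress-induced NF-kB target, stood at 377, 681, 40.5 and 438 CPM and Cxcl16 at 62.7, 39.8, 12.5 and 42.3 CPM. Vcam1, an adhesion molecule, stood at 25.4, 13.7, 34.3 and 84.6 CPM. Ccl5, a chemokine of T and NK cells, was at 0 UMIs in control, 4 and 8 weeks and at 831 CPM at 2 weeks, at least 327-fold above the 2.54 CPM that 3 counts in control would give. All 606 of its UMIs came from 6 cells, within the 7 cells of that library with at least 2 lymphocyte or neutrophil markers. Markers of T or NK cells summed to 102.5, 185, 6.23 and 2.92 CPM in microglia, and those of neutrophils to 249, 21.9, 3.12 and 4.38 CPM. Mast cell markers summed to 197 CPM in control, from 233 UMIs, and to 1.37, 0 and 0 CPM later, and monocyte or dendritic markers to 1799, 1731, 1091 and 1494 CPM. The part of these in the member levels was not tested, beyond leaving out cells. The 8 and 7 microglia of control and 2 weeks with at least 2 T or NK, B cell or neutrophil markers were left out. Then 3, 8 and 4 members were past 2-fold lower at 2, 4 and 8 weeks, where all microglia gave 3, 7 and 3. The share of all genes used is not given for the cells that remained. Adding mast cell markers to that rule left out no further cell. Monocyte or dendritic markers were not part of it.

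**Figure D4:**
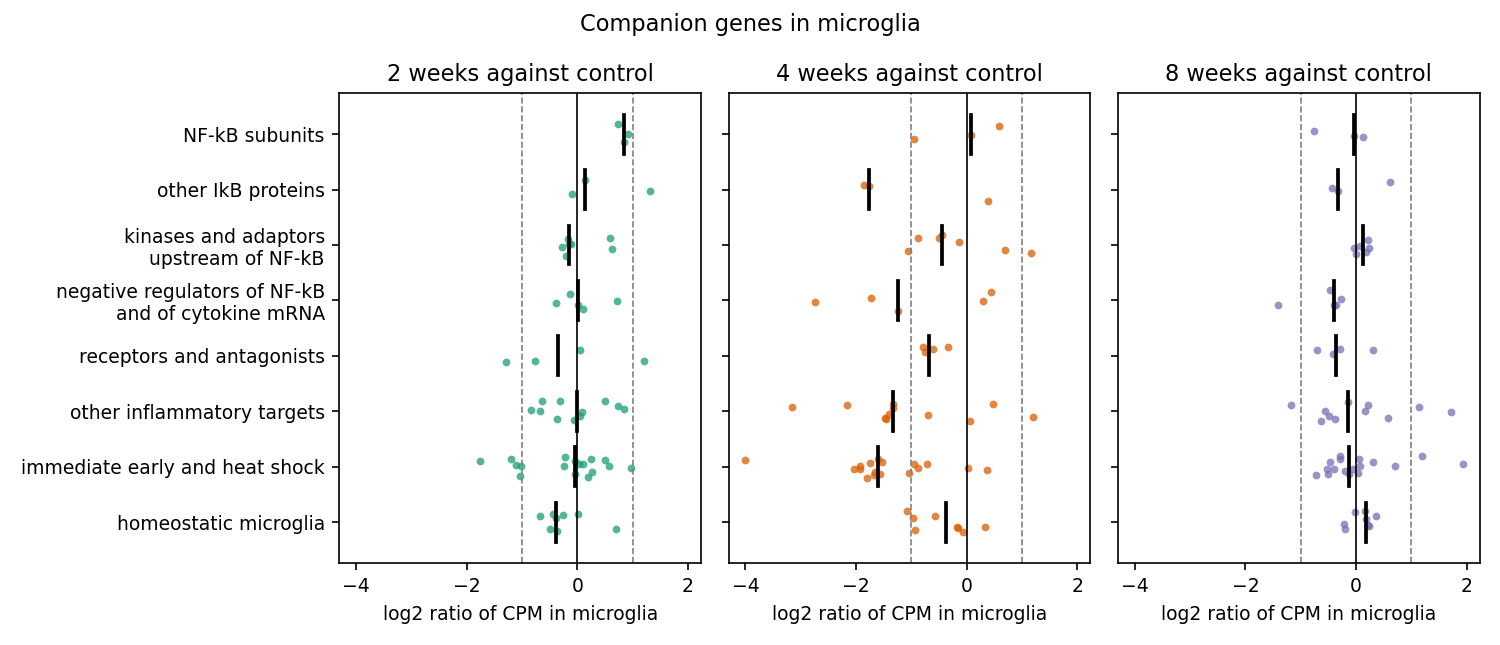
Log2 ratios to control in microglia of the companion genes used (at least 20 CPM on average), 1 point per gene, by list and time, with the list median as a black bar and 2-fold as dashed lines; Ccl5, at 0 in control, is not drawn but counts in its list's median. The lists of immediate early and heat shock genes (-1.61) and of other inflammatory targets (-1.34) lie left at 4 weeks, while the NF-kB subunits lie at 0.08.

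Outside microglia, Nfkbia and Tnfaip3 were the members with most UMIs. Nfkbia was abundant in endothelial cells and was not lowest at 4 weeks there, at 1914, 1720, 2392 and 2059 CPM from 93, 416, 32 and 51 cells. It was detected in 96.1 to 97.4% of them. The 32 cells at 4 weeks were fewer than the 50 needed for a comparison, so no endothelial ratio is given for that time. In the 4-week library 1 kept cell outside microglia held 224 of the 4485 Nfkbia UMIs, and its class is not given here. In rods Nfkbia stood at 324, 254, 415 and 402 CPM, in bipolar cells at 54.8, 127, 103 and 157 CPM and in Müller glia at 69.7, 81.7, 102 and 61.9 CPM. The bipolar ratios were past 2-fold higher at 2 weeks (1.20, 0.81 to 1.64) and at 8 weeks (1.51, 1.10 to 1.95), where 1.93% and 5.75% of bipolar genes were. The bipolar class held a cluster marked by Pcp2 and Car8 that made up 2.96, 13.8, 6.23 and 18.3% of its cells, with Nfkbia at 149, 183, 126 and 297 CPM. In the 3 largest other bipolar clusters Nfkbia at 8 weeks was 59.3, 33.8 and 65.3 CPM against 56.0, 40.7 and 60.6 in control, so the 8-week call was not seen in them, whereas 2 weeks stood at 93.0, 107 and 133 CPM. Cones held 75.8, 70.2, 148 and 54.7 CPM and amacrine cells 34.4, 42.9, 40.8 and 23.9 CPM. A class named as ganglion cells held 39.7, 56.6, 55.8 and 39.7 CPM. A class named as pigment epithelium held 164, 128, 98.6 and 249 CPM, the last from 3 UMIs. Both names are uncertain and rested on 5 of 7 and 4 of 6 markers. Calb2 and Ppp1r17 were also among the top genes of the class named as ganglion cells. Clusters left without a name held 863, 573, 597 and 411 CPM. At 4 weeks Nfkbia was past 2-fold lower in microglia and within 2-fold of control in rods, bipolar cells, cones and Müller glia, with log2 ratios of 0.36, 0.91, 0.96 and 0.55. The difference between classes was not tested.

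Tnfaip3 UMIs lay mainly in rods, which held 84.7, 74.7, 93.7 and 85.9% of them. Rods also made up 77.6, 65.3, 83.4 and 71.0% of kept cells. The rod level was 53.4 CPM in control, 19.1 at 2 weeks, 20.2 at 4 weeks and 64.6 at 8 weeks, so that control and 8 weeks were the higher pair. At 2 weeks the rod level lay below the 39.8 CPM of microglia. Different rod clusters held most rods of each library: 1 cluster held 76.4% of control and 66.9% of 8-week rods, another held 57.9% of those at 2 weeks and yet another 64.5% of those at 4 weeks. Within the first of these Tnfaip3 stood at 58.3, 20.0, 40.3 and 68.6 CPM, within the second at 46.8, 22.4, 19.8 and 49.1, and within the last at 37.5, 25.5, 18.2 and 78.3 CPM. In a further cluster, with 30.1% of 2-week rods, control and 2 weeks lay at 14.1 and 14.4 CPM and the 4-week interval of 7.12 to 21.8 CPM held both, with 8 weeks at 50.3 CPM. The log2 ratios were -1.48 (-1.77 to -1.20), -1.40 (-1.70 to -1.11) and 0.28 (0.05 to 0.50). In rods 8.79% of genes were past 2-fold lower at 2 weeks and 3.74% at 4 weeks. With each rod thinned to 500 UMIs, 2.68, 0.962, 0.998 and 3.16% held a Tnfaip3 UMI. Rods had 2.68 Tnfaip3 UMIs per Ccl3 UMI in control, where microglia had 0.00739, so the rod counts were not in the microglial proportion. Bipolar cells had 5.67, 2.60, 1.04 and 13.2 CPM.

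Chemokine counts in rods were low. Ccl3 had 19.9, 1.42, 1.21 and 4.29 CPM there, while Ccl4 had 22.7, 1.93, 0.152 and 6.95 CPM. Rods had 1.14, 1.36, 0.125 and 1.62 Ccl4 UMIs per Ccl3 UMI at 0, 2, 4 and 8 weeks, against 1.24, 1.57, 0.482 and 1.45 in microglia. For Cxcl2 per Ccl3 UMI the values were 0.172, 1.00, 1.25 and 0.0952 in rods, against 0.418, 1.00, 0.233 and 0.343. The rod values rest on 122, 11, 8 and 21 Ccl3 UMIs. Cxcl2 (21, 11, 10 and 2 UMIs) and Il1b (33, 4, 5 and 5 UMIs) were scarcer than Ccl3 in rods of control and 8 weeks. Vascular cells carried Ccl2 and Cxcl1. In pericytes or smooth muscle cells Cxcl1 stood at 136, 259, 452 and 1129 CPM and Ccl2 at 262, 66.3, 0 and 1961 CPM, from 40, 319, 5 and 13 cells. At 8 weeks 33 of the 66 Ccl2 UMIs came from 1 cell, and 97 of the 319 cells at 2 weeks formed a cluster that no other library had, so the libraries are not compared. Nfkbia stood there at 552, 396, 1265 and 832 CPM. Endothelial Cxcl1 was at 86.3, 12.5, 235 and 3.07 CPM, and 55 of the 82 UMIs at 4 weeks lay in 1 cell. Against control it was past 2-fold lower at 2 and 8 weeks, as were 2.28% and 4.91% of endothelial genes. The 8-week log2 ratio of -4.24 (-10.14 to -2.28) rested on 1 UMI. The unnamed clusters had 69.9, 48.4, 48.3 and 48.0 CPM of Cxcl1 and 29.3, 14.7, 0 and 43.2 CPM of Ccl2. Of all Cxcl1 UMIs, microglia held 48.7% in control, 9.56% at 2 weeks, 4.31% at 4 weeks and 36.8% at 8 weeks.

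**Figure D5:**
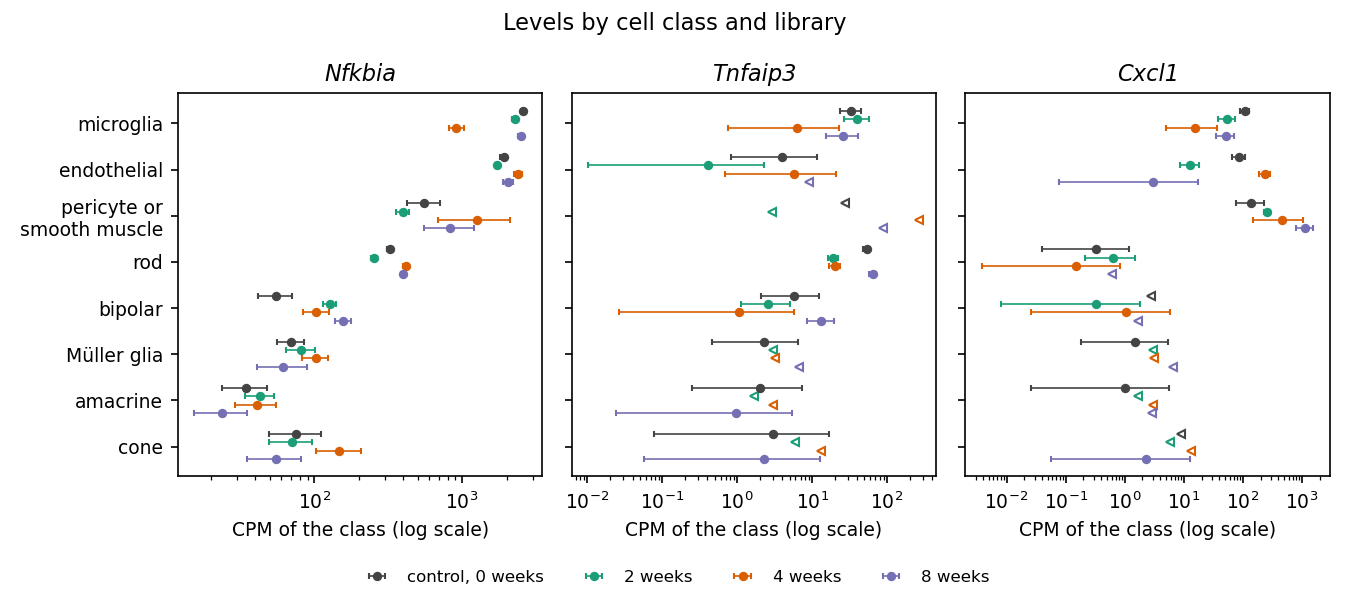
CPM (log scale) of Nfkbia, Tnfaip3 and Cxcl1 in 8 cell classes and 4 libraries with exact Poisson 95% intervals; open triangles mark the level that 3 counts would give where no UMI was found. Nfkbia lies at 1720 to 2392 CPM in endothelial cells in all 4 libraries while the microglial point at 4 weeks drops to 916, and Tnfaip3 lies at 19.1 to 64.6 CPM in rods. The endothelial point at 4 weeks comes from 32 cells, fewer than the 50 needed for a comparison.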

How the data were processed

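Retinal cells of 4 libraries were counted as UMIs per gene and barcode. The authors deposited raw counts with no normalization, made with Cell Ranger 3.0.1 on Rnor_6.0 per the submitters' processing notes; the annotation release is not given in the sources used here. Barcodes with at least 500 UMIs, 200 genes and at most 20% mitochondrial UMIs were kept, and the top Scrublet scores (0.8% per 1000 barcodes, scanpy 1.11.5) were removed: 577, 1627, 721 and 279 barcodes. Depth was 25068331, 34177860, 20151789 and 24604362 UMIs. Leiden clustering (leidenalg 0.10.2, resolution 1.0, 2000 variable genes, 30 components) gave 26 clusters, without the members and companion genes. A cluster took a class name where at least 3 markers and 40% of a list were 2-fold up and no other list led its top genes, so the names are rebuilt here.

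UMIs were summed per library and class. Ratios had 0.5 counts added, and intervals are exact 95% (Poisson, binomial or conditional binomial), for counting error only. A class was compared with at least 50 cells in both libraries and a gene with a mean of 20 CPM and 30 UMIs over the pair. A count of 0 was read against 3 counts. The ratio script was tested on simulated data. TMM used edgeR 4.0.16 in R 4.3.3.

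The members and lists were chosen with earlier results of these data known. The genes named are all members in microglia, members with at least 30 UMIs in another class, up to 4 genes per companion list with the largest ratio and any past 2-fold at all 3 times, and the 8 genes most like the members. 1 companion gene is not reported here.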

Additional observations from a re-analysis of the deposited data

Results flagged for a closer look

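2 kinds of result stood out, and no difference was tested, since each group had 1 library. In the first, a gene's log2 ratio to control pointed in opposite directions in microglia and in another class, with both counting intervals on opposite sides of 0. Nfkbia at 4 weeks was -1.504 in microglia and 0.957 in cones, 0.909 in bipolar cells, 0.552 in Müller glia and 0.357 in rods, all 4 of them within 2-fold. At 2 weeks Nfkbia was -0.183 in microglia and 1.203 in bipolar cells. Cxcl2 at 2 weeks was 0.421 in microglia and -1.243 in rods, the latter from 21 and 11 UMIs at 3.43 and 1.42 CPM, below the 20 CPM needed for a call elsewhere.

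In the second, a signal above control lay in barcodes that the comparisons left out, those with more than 20% mitochondrial UMIs. At 2 weeks Cxcl1 had a log2 ratio of 1.064 there, from 16 UMIs in control and 32 at 2 weeks, and Nfkbia of 0.228. Of the 32 Cxcl1 UMIs 18 lay in 1 barcode. In the same barcodes Ccl3 (-4.30), Il1b (-3.57), Ccl2 (-3.37), Cxcl2 (-2.84), Ccl4 (-2.20) and Tnfaip3 (-0.71) had ratios below 0 at 2 weeks. All ratios are of CPM over those barcodes, whose cell classes were not examined.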

How the results depend on the processing

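Over 18 alternatives at 2-fold (the deeper microglia cluster alone and the removal of cells with lymphocyte or neutrophil markers, without and with mast cell markers, were chosen after seeing the data), the members past 2-fold lower in microglia numbered 0 to 4 at 2 weeks, 7 to 9 at 4 weeks and 2 to 5 at 8 weeks. At 2 weeks the count of 3 became 0 with free RNA subtracted, 1 with cells thinned to 1000 UMIs and 0 at a 3-fold threshold. At 8 weeks the count of 3 became 5 as a mean over cells, 6 at a 1.5-fold threshold and 0 at a 3-fold threshold. Apart from the filters on mean CPM below, no share of all genes is given for these alternatives and thresholds. Their counts therefore stand without a background. The free RNA profile was that of all kept cells, microglia included. The microglial share of chemokine and cytokine UMIs was 95.8% in control with up to 40% mitochondrial UMIs and 88.9% at 2 weeks with doublets kept. Of 540 ratios of single genes, 458 stayed within the interval of the reported ratio. The sign differed in 13: 8 of Il1a and 1 of Nfkbia at 8 weeks and 1 of Tnfaip3 at 8 weeks, whose reported intervals held 0, and 3 whose intervals did not, Il1b at 2 weeks (0.14 after thinning, 0.011 as a mean over cells) and Tnfaip3 at 4 weeks (0.935 after thinning); the cause was not tested. TMM scaling shifted log2 ratios by -0.18, -0.09 and 0.02 at 2, 4 and 8 weeks. The background share past 2-fold lower at 4 weeks was 8.59% at a mean of 5 CPM and 13.7% with no filter. Depth limits Il1a, Tnfaip3 and Cxcl1, whose 4-week values rest on 4, 2 and 5 UMIs. No paired analysis was possible because each group had 1 library with counts, so no replicate could be left out or paired.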

Other observations

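Over all kept cells of the retina, Ccl3 had 385, 87.0, 26.7 and 173 CPM in control and at 2, 4 and 8 weeks. Ccl4 had 478.5, 136, 12.6 and 251 CPM. Such a level holds both the level in microglia and their share, which was 3.30, 1.85, 1.00 and 3.78% of cells. Nfkbia, which many classes hold, stood at 528, 461, 375 and 443 CPM. Among all deposited barcodes without a filter, Ccl3 stood at 244, 57.3, 17.3 and 88.6 CPM.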
